A study of Mus musculus with 6 samples.

Results

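Noncollagenous proteins of the tectorial membrane, of its attachment, of the basilar membrane and of otoconia were compared between the cochleas of young and old C57BL/6 mice. The members were fixed by name as Tecta, Tectb, Otog, Otogl, Otoa, Ceacam16, Emilin2 and Oc90. All 8 were found among the 25823 genes of the sequencing table after the FPKM (fragments per kilobase of transcript, scaled to sequencing depth) of each gene's transcripts had been summed. The young group held 3 samples of mice aged 1 month and the old group held 3 samples of mice aged 12 months. Tissue of 3 mice was mixed in each sample, and both groups were C57BL/6 mice, a strain that loses hearing early, with no treatment named in the labels. By the labels, the basilar membrane was dissected from each cochlea. The comparison asked which of these genes differed in RNA level between the ages.

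The tectorial membrane is an acellular gel that lies over the hair cells and deflects their stereocilia when sound moves the basilar membrane. Its collagen fibrils run through a striated sheet built from alpha-tectorin, beta-tectorin and CEACAM16, and otogelin is another large glycoprotein of the same matrix. Otoancorin fixes the inner edge of the membrane to the interdental cells of the spiral limbus. Much of the matrix is laid down before and shortly after birth, so that the RNA of some components is known to be low in the mature ear.

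Old mice had more RNA of Ceacam16, Otoa and Otog, and the other 5 members did not pass the test. Ceacam16 was 1.52-fold, Otoa 1.60-fold and Otog 1.65-fold higher in the old mean than in the young mean. Thus 3 of 8 members passed in the upward direction, against 5.41% of the 19649 genes tested, and 0 of 8 passed in the downward direction, against 3.68% of genes. At an unadjusted p below 0.05 the members numbered 5, with Tectb and Otogl lower in old mice, against 27.5% of genes. The median log2 change (old minus young) was 0.41 over the members and 0.01 over the genes tested. The members' median was 0.29 over the 6 members with a mean of at least 1 FPKM, 0.11 with a pseudocount of 1 and 0.21 with quantile normalization. The calls come from limma on log2(FPKM + 0.1), two-sided, with the Benjamini-Hochberg adjusted p below 0.05, and means below are given with the SD of 3 samples per age. Otoa alone passed when young replicate 1, young replicate 2, old replicate 1 or old replicate 3 was left out (1 member each). Without old replicate 2, 0 members passed, and the same 3 passed without young replicate 3. Calls over all genes fell too, from 1787 with all samples to 708, 300 and 1756 without young replicates 1, 2 and 3. They numbered 378, 59 and 341 without old replicates 1, 2 and 3. Because whole tissue was sequenced, more cells of a type and more RNA per cell cannot be told apart here.

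**Figure D1:**
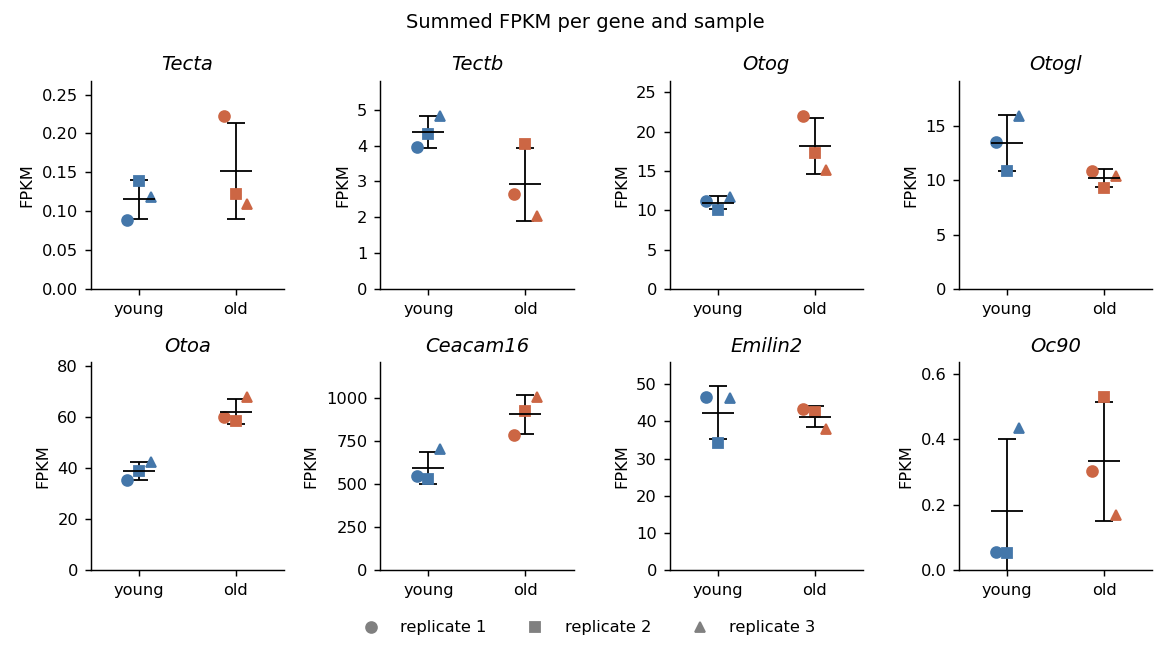
FPKM of each member in the 3 young samples (blue) and the 3 old samples (orange), with the mean and SD in black, the y axis starting at 0 and the symbol giving the replicate number. For Otog, Otoa and Ceacam16 the old points lie above the young points, and for the other members the groups overlap.

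The samples held markers of the cochlea beyond the basilar membrane named in the labels. Of the marker lists for hair cells, supporting cells with interdental or sulcus epithelium, spiral ligament fibrocytes and stria vascularis, every gene was measured at a level that entered the test. The spiral ligament gene Coch averaged 8295 FPKM in young and 5447 FPKM in old samples (limma adjusted p = 0.0241), and the strial gene Dct averaged 784 and 862 FPKM (limma adjusted p = 0.544). Car3, also of the spiral ligament list, went the other way, from 405 to 896 FPKM (limma adjusted p = 0.0127). The other 4 of the 6 genes in that list did not pass, and its median log2 change was -0.20. The lists differed in level between samples. The summed FPKM of the 10 hair cell genes was 220.2 to 318.3 in young samples and 165.6 to 187.5 in old samples. Much of this sum was Ocm, which averaged 135 FPKM in young and 58.4 FPKM in old samples. Slc26a5 (limma adjusted p = 0.0194) and Ocm (limma adjusted p = 0.0297) were lower and 8 genes did not pass. The median log2 change of the hair cell list was -0.41. The 10 genes of supporting cells and of interdental or sulcus epithelium summed to 1479 to 1682 in young samples and 1704 to 1844 in old samples. Most of this sum came from Gjb6 (643 FPKM in young and 669 FPKM in old samples), Gjb2 (361 and 431) and Epyc (358 and 403). Gjb2, Gjb6, Fgfr3, Epyc and Tspan8 had positive log2 changes, and Sox2, Slc1a3, Prox1, Lfng and Hes1 had negative ones. In this list 1 gene passed, Tspan8, which was higher in old mice (limma adjusted p = 0.0125), 9 did not, and the median log2 change was -0.07. The 12 leukocyte genes summed to 137.5 to 584.7 in young samples and 708.4 to 838.6 in old samples, with 9 of them higher and a median log2 change of 1.62. The 6 bone genes summed to 36.5 to 220.9 in young samples and 34.1 to 38.6 in old samples, with Ibsp and Sp7 lower. Young replicate 1 stood apart, with Bglap at 133.4 FPKM against 2.20 to 51.3 FPKM in the other samples and S100a8 at 227.9 FPKM against 7.71 to 36.4 FPKM. The part of these shifts in the members' values was not tested. Without young replicate 1, Otoa was past the threshold, and Otog (limma adjusted p = 0.0741) and Ceacam16 (limma adjusted p = 0.0925) were not. The log2 changes of Otog and Ceacam16 were then 0.72 and 0.56, against 0.71 and 0.61 with all samples. Over all genes, 708 passed in that fit against 1787 with all samples. Otog and Ceacam16 also fell short when young replicate 2 or any single old replicate was left out.

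The steps between low FPKM values correspond to 12560000 to 15670000 fragments per sample. From these depths, Ceacam16 rested on 9832 to 19685 estimated fragments per sample, and Otog, Otogl, Otoa and Emilin2 on 1142.6 to 2844 each. Tectb rested on 46.0 to 98.1 fragments, Tecta on 8.0 to 19.0 and Oc90 on 1.0 to 12.0. Values of the last 2 genes therefore carry large counting error, whatever their spread between samples.

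Among the genes for proteins of the striated sheet, Ceacam16 had a far higher RNA level than either tectorin gene. Protein was not measured. Ceacam16 encodes a secreted protein of the carcinoembryonic antigen family that binds alpha-tectorin. The gene (ENSMUSG00000014686) is annotated on the minus strand of chromosome 7 (GRCm38, positions 19852097 to 19861299), and its main transcript has 6 exons and 1635 nt. It was at 550.6, 532.2 and 704.3 FPKM in young replicates 1 to 3, and the old replicates held 785.6, 928.1 and 1006 FPKM. Every old value lay above every young value, although the gap between young replicate 3 and old replicate 1 was smaller than the SD of either group. By mean level over the 6 samples it ranked at place 81 of all genes in the table. The log2 change was 0.61 (SE 0.13, 95% interval 0.30 to 0.92, limma adjusted p = 0.0365). Quantile normalization lowered it to 0.47, where it did not pass (limma adjusted p = 0.0636), nor did it without a filter on low values (0.0699) or without a variance trend (0.102). Gm19345, a gene on the opposite strand that overlaps Ceacam16, averaged 10.1 FPKM in young and 12.3 FPKM in old samples and did not pass (limma adjusted p = 0.611).

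Alpha-tectorin, the main noncollagenous protein of the membrane, is encoded by Tecta (ENSMUSG00000037705) on the minus strand of chromosome 9 (42329619 to 42399929). Its summed FPKM was 0.0889, 0.139 and 0.118 in young replicates 1 to 3. In old replicates 1 to 3 it was 0.223, 0.122 and 0.109. Only old replicate 1 stood above the young range, and it held 19.0 estimated fragments against 8.0 to 12.9 in the young samples. The log2 change was 0.20 with a 95% interval from -0.97 to 1.38 (limma adjusted p = 0.824), so that a difference was not detectable at this depth. Nearly all of the signal was assigned to the 7048 nt transcript ENSMUST00000160940, and the 7338 nt transcript ENSMUST00000042190 was below 0.0001 FPKM in every sample. Placed by mean level, Tecta ranked at 19277 of the genes in the table.

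Tectb (ENSMUSG00000024979), which encodes beta-tectorin, the smaller partner of alpha-tectorin, lies on the plus strand of chromosome 19 (55180733 to 55196313). Its FPKM was 3.96, 4.33 and 4.84 in the young replicates and 2.66, 4.04 and 2.04 in the old replicates. Old replicates 1 and 3 lay below the young range and old replicate 2 lay inside it, so the groups overlapped. The difference between the means, 4.37 ± 0.442 FPKM in young and 2.92 ± 1.02 FPKM in old mice, did not pass (log2 change -0.62, SE 0.25, limma adjusted p = 0.163). The unadjusted p was 0.0413. Without old replicate 2 the log2 change was -0.87. The 2725 nt transcript ENSMUST00000025936, with 10 exons, carried 58.7% of the young FPKM and 53.1% of the old FPKM. For this transcript alone all old values (1.31, 2.09 and 1.24 FPKM) lay below all young values (2.85, 2.34 and 2.51 FPKM), without passing the transcript test (limma adjusted p = 0.264).

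Otogelin and otogelin-like are paralogous, very long glycoproteins with mucin-like features, and mutations in either gene cause hearing loss in humans. Otog (ENSMUSG00000009487) occupies 46240987 to 46311434 of the plus strand of chromosome 7, and its main transcript of 10043 nt has 56 exons. Otogl (ENSMUSG00000091455) occupies 107760531 to 107912134 of the minus strand of chromosome 10, and its transcript of 8763 nt has 58 exons. Otog was at 11.1, 10.0 and 11.7 FPKM in the young replicates, whereas the old replicates held 22.0, 17.2 and 15.1 FPKM. The young values lay close together, and all old values were higher, with old replicate 1 the highest (log2 change 0.71, SE 0.15, 95% interval 0.36 to 1.05, limma adjusted p = 0.0326). It did not pass without a filter on low values (limma adjusted p = 0.0579), without a variance trend (0.0867) or with the long transcript alone (0.0700). Otogl did not pass, at 13.5, 10.8 and 15.9 FPKM in young mice against 10.9, 9.31 and 10.4 FPKM in old mice (log2 change -0.38, SE 0.15, limma adjusted p = 0.159). Young replicate 2 fell within the old range of Otogl, and the other young samples lay above it.

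The order of the paralogs was therefore opposite at the 2 ages. In every young sample Otogl exceeded Otog, with Otog over Otogl at 0.822, 0.926 and 0.733. In every old sample Otog exceeded Otogl, at 2.02, 1.85 and 1.45. This ratio is taken within a sample and does not depend on how libraries were scaled to each other. With 0.1 FPKM added to both genes, the log2 ratio was -0.28 ± 0.167 in young and 0.81 ± 0.246 in old samples. The difference was 1.09 (exact permutation test, two-sided, p = 0.1, adjusted p = 0.2 over the 2 ratios tested). No smaller p than 0.1 is possible in this design. Leaving out any sample kept the difference between 0.98 and 1.22. The other ratio, Tecta over Tectb, had overlapping groups. It was 0.0225, 0.0320 and 0.0245 in young replicates 1 to 3 and 0.0837, 0.0303 and 0.0535 in old replicates 1 to 3. With 0.1 FPKM added to both genes, the log2 values were -4.38 ± 0.148 in young and -3.56 ± 0.587 in old samples (exact permutation test, p = 0.2, adjusted p = 0.2). Tecta itself was near 0.1 FPKM, so these log2 values depend on the value added and also on library scaling.

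**Figure D2:**
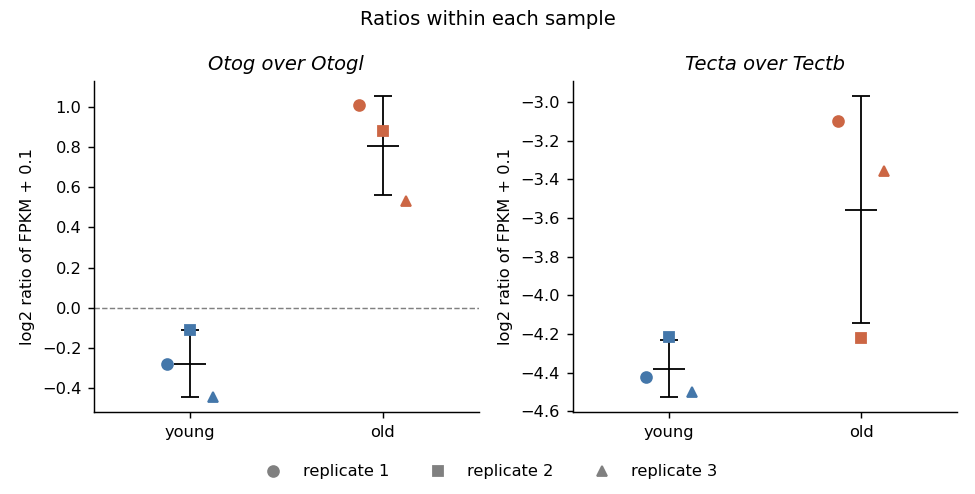
Log2 of the FPKM ratio between 2 members in each sample, with 0.1 added to both values, for Otog over Otogl on the left and Tecta over Tectb on the right (mean and SD in black, symbols by replicate number, y axes not starting at 0). The dashed line marks equal levels of Otog and Otogl, and the young points lie below it while the old points lie above it.

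Otoa encodes otoancorin, the anchor of the tectorial membrane on the limbus. It passed in more of the alternative analyses than Otog or Ceacam16. The gene (ENSMUSG00000034990) lies on the plus strand of chromosome 7 (121081650 to 121163097), and its main transcript has 29 exons and 3773 nt. It was at 35.3, 38.9 and 42.2 FPKM in the young replicates, whereas the old replicates held 59.8, 58.6 and 67.8 FPKM. A gap wider than either group's range separated the ages. The log2 change was 0.68 (SE 0.09, 95% interval 0.46 to 0.89, limma adjusted p = 0.0137). It passed in 14 of 16 alternative analyses, all but the fit without a variance trend (limma adjusted p = 0.0552) and the fit without old replicate 2 (limma adjusted p = 0.0567). Its log2 change stayed between 0.61 and 0.74 in all 16, although the filter, variance trend and replicate block cannot alter it.

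At the level of transcripts, 1 of the 15 member transcripts tested passed, the 3773 nt Otoa transcript ENSMUST00000047025 (limma adjusted p = 0.0415), against 0.549% of the 38764 transcripts that passed upward. It went from 34.5 ± 3.13 to 53.7 ± 2.56 FPKM. A short 721 nt Otoa transcript, ENSMUST00000170106, went from 2.87 ± 0.0240 to 6.42 ± 1.66 FPKM without overlap of the groups, and its share of the gene was 7.39% in young and 10.3% in old samples (limma adjusted p = 0.0750). The long Otog transcript ENSMUST00000164538 was above the young range in all old samples, at 17.9, 13.7 and 13.3 FPKM against 9.29, 7.72 and 11.4 FPKM (limma adjusted p = 0.138). The 3558 nt Otog transcript ENSMUST00000209802, which covers the last exons, varied between 0.324 and 2.31 FPKM in young and 1.83 and 4.11 FPKM in old samples. Since these transcripts share exons, the split between them is an estimate. The groups did not overlap for 24.6% of all transcripts tested.

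**Figure D3:**
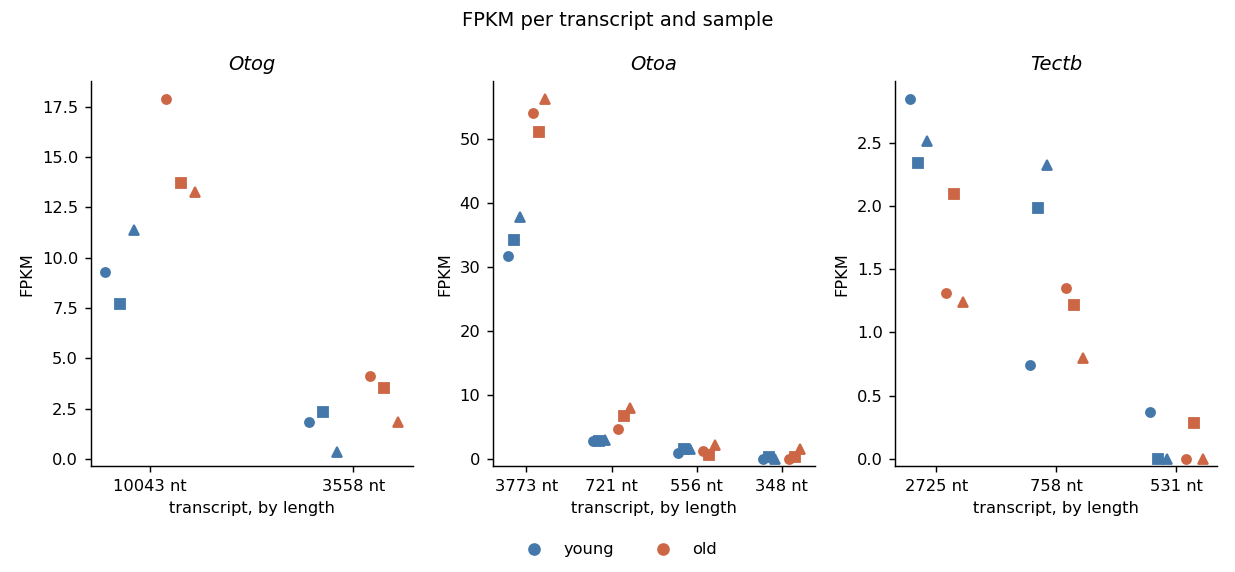
FPKM of the Otog, Otoa and Tectb transcripts with a mean of at least 0.1 FPKM, by sample (young blue, old orange, symbols by replicate), with the transcripts ordered by length on the x axis. The longest transcript of each gene holds most of its signal, above the young points in old samples for Otog and Otoa and below them for Tectb.

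Emilin2 encodes an elastin microfibril interface protein, known in the ear as a component of the basilar membrane and elsewhere as a vascular and blood cell matrix protein. The gene (ENSMUSG00000024053) lies on the minus strand of chromosome 17 (71252172 to 71311978), and 1 of its 11 annotated transcripts is in the table. It was at 46.5, 34.1 and 46.3 FPKM in the young replicates, and the old replicates held 43.4, 42.4 and 38.0 FPKM. The old values lay inside the young range. The log2 change was -0.02, with a 95% interval from -0.33 to 0.28 (limma adjusted p = 0.926).

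Oc90 encodes otoconin-90, the principal matrix protein of otoconia, the calcium carbonate crystals of the vestibular maculae. The gene (ENSMUSG00000015001) lies on the minus strand of chromosome 15 (65876053 to 65912397). It was at 0.0570, 0.0547 and 0.434 FPKM in the young replicates, and the old replicates held 0.302, 0.529 and 0.168 FPKM. These values correspond to 1.0, 1.0 and 3.0 estimated fragments in young and 5.0, 12.0 and 3.0 in old samples. Young replicate 3 lay inside the old range, and no difference was detectable at this depth (limma adjusted p = 0.475). Of the 0.434 FPKM in young replicate 3, 0.349 FPKM was assigned to the 659 nt noncoding transcript ENSMUST00000147776, from 1.6 estimated fragments. For the 1608 nt transcript ENSMUST00000156996 alone, the old values (0.302, 0.320 and 0.168 FPKM) lay above the young values (0.0568, 0.0544 and 0.0849 FPKM), from 1.0 to 1.4 estimated fragments per young sample and 3.0 to 6.7 per old sample, without passing the transcript test (limma adjusted p = 0.385). The 4 marker genes of vestibular organs summed to 6.98 to 8.41 FPKM in young samples and 7.96 to 9.23 FPKM in old samples. Of these, Otol1, the collagen-like otoconial protein otolin, was at 0.271 to 0.684 FPKM, Otop1 at 2.02 to 4.48 FPKM and Noxo1 at 3.59 to 5.53 FPKM, and Nox3, the oxidase needed for otoconia, was at 0 in all samples but young replicate 1.

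FPKM is a value per length, so the members can be ordered by level. In young samples the means ran from Ceacam16 (596 ± 94.5 FPKM) through Emilin2 (42.3 ± 7.08), Otoa (38.8 ± 3.47), Otogl (13.4 ± 2.56), Otog (10.9 ± 0.844) and Tectb (4.37 ± 0.442) to Oc90 (0.182 ± 0.218) and Tecta (0.115 ± 0.0250). The ranges of Emilin2 and Otoa, of Otogl and Otog, and of Oc90 and Tecta overlapped there. Oc90 exceeded Tecta in 1 of the 3 young samples. In old samples the order was Ceacam16 (907 ± 112 FPKM), Otoa (62.1 ± 4.97), Emilin2 (41.2 ± 2.88), Otog (18.1 ± 3.54), Otogl (10.2 ± 0.811), Tectb (2.92 ± 1.02), Oc90 (0.333 ± 0.182) and Tecta (0.152 ± 0.0621). Only the ranges of Oc90 and Tecta overlapped among neighbours in the old order. Otoa and Otog each stood 1 place higher than in the young order, past a neighbour whose range they had overlapped there.

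**Figure D4:**
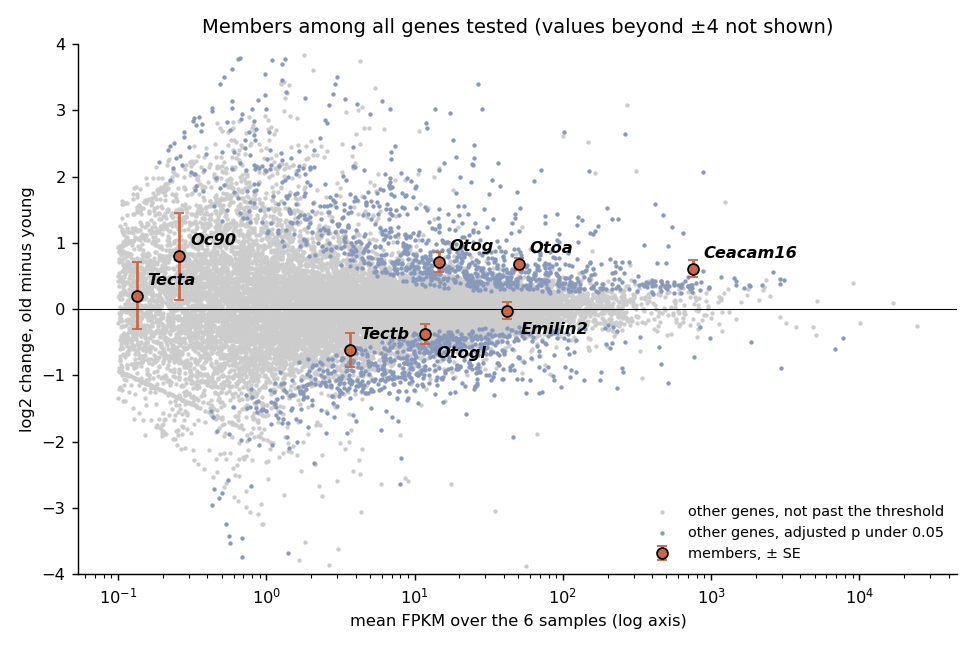
Log2 change (old minus young) of all genes tested against their mean FPKM on a log axis, with genes past the adjusted threshold in blue, the other genes in grey and the members in orange with their SE. Otog, Otoa and Ceacam16 lie between 0.61 and 0.71, and Tecta and Oc90 lie at the left edge with wide errors.

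The 3 members that rose are all on chromosome 7, but are not neighbours there. Of the 1452 genes of chromosome 7 that were tested, 6.89% passed in the upward direction. All old values lay above all young values for these 3 members, as for 17.5% of all genes tested, and all old values lay below all young values for 0 members, against 16% of genes. The 250 bases upstream of the RefSeq start were available for 5 members (GRCm38.p6). They are shown for the 2 plus-strand members that rose and, for contrast, for Tectb, each on the plus strand and free of exons of protein-coding transcripts. The Otoa stretch lies inside the annotated gene, in a noncoding transcript with a retained intron that starts at 121081650. Capitals mark the letters CCAAT or CANNTG on either strand. The stretches are chr7:46240737-46240986 for Otog, chr7:121083174-121083248 for Otoa and chr19:55180476-55180725 for Tectb.
Otog: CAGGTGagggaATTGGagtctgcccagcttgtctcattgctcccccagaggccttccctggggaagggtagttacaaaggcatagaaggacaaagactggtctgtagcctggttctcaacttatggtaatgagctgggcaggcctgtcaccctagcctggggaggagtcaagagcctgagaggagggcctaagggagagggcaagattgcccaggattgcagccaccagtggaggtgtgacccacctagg
Otoa: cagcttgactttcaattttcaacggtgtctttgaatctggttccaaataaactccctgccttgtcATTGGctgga
Tectb: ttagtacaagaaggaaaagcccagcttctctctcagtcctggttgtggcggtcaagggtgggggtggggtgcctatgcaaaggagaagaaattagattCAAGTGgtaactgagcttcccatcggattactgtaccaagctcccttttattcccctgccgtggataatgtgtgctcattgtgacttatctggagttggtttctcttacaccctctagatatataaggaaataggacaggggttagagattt
CCAAT was present once in the stretches of Otog and Otoa and absent from that of Tectb, and 34.5% of 27025 promoter windows of 250 bases held it. CANNTG occurred once in Otog and once in Tectb, and 66.0% of windows held it. TATAAA (in 13.0% of windows) and GGGCGG (in 32.9%) were in none of the 3 stretches. The Otoa window was shortened to 75 bases because exons of protein-coding transcripts begin inside it. The shares are over 250 bases, and the full Otoa window of that length also held 1 CCAAT and none of the other letters sought. The windows of Tecta and Emilin2, which are not shown, held no CCAAT, and no window was available for Ceacam16.

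Other genes of the same structures moved in both directions. Of 9 other tectorial membrane genes, all tested, 2 were higher and 3 lower in old mice (median log2 change -0.37), where 9.09% of all genes passed in either direction. The higher ones were Col9a3, from 37.2 to 59.6 FPKM (limma adjusted p = 0.0287), and Col9a1, from 19.3 to 27.4 FPKM (limma adjusted p = 0.0421). The lower ones were Col11a1, from 23.1 to 16.6 FPKM (limma adjusted p = 0.0212), Col5a2, from 7.12 to 3.26 FPKM (limma adjusted p = 0.0377), and Col9a2, from 98.5 to 76.1 FPKM (limma adjusted p = 0.0449). These genes encode chains of the fibrillar and fibril-associated collagens, so chains of type IX collagen, which assemble together, had changes of opposite sign. The samples also held RNA of bone and spiral ligament genes, and which tissue gave the collagen values was not tested. Strc, encoding stereocilin, which links outer hair cell stereocilia to the membrane, was at 1.05 to 2.16 FPKM in young and 0.893 to 1.13 FPKM in old samples and did not pass (limma adjusted p = 0.248).

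Of 9 other genes of otoconia and vestibular organs, 8 were tested, 2 were higher, 1 was lower and 5 did not pass (median log2 change 0.01), against the 9.09% of all genes that passed in either direction. Slc26a4, encoding the anion exchanger pendrin, rose from 101 to 229 FPKM (log2 change 1.18, limma adjusted p = 0.00528). Otol1 and Otop1 of the same list were at 0.271 to 0.684 and 2.02 to 4.48 FPKM. Which cells gave the Slc26a4 signal was not tested. Cyba, a subunit of NADPH oxidases that leukocytes also express, rose from 69.7 to 111 FPKM (limma adjusted p = 0.0167). Atp2b2, the plasma membrane calcium pump of hair cell stereocilia, fell from 24.5 to 16.5 FPKM (limma adjusted p = 0.0344). Of 10 genes of the EMILIN family and the basilar membrane matrix, 9 were tested and 1 passed, Fbn1, the microfibril protein fibrillin-1, which fell from 4.39 to 2.75 FPKM (limma adjusted p = 0.0440). This share is near the 9.09% of all genes. Emilin1, another member of the family, averaged 4.55 FPKM in young and 5.82 FPKM in old samples and did not pass (limma adjusted p = 0.173). Emilin3, of the same family, went the other way, from 0.788 to 0.492 FPKM, and did not pass either (limma adjusted p = 0.279). The median log2 change of this list was -0.33. In these 3 lists, with 9, 8 and 9 genes tested, 9 genes together were past the threshold, where 9.09% of all genes were. That count was 4, 2 and 8 when young replicates 1, 2 and 3 were left out in turn, and 1, 1 and 2 for the old replicates.

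**Figure D5:**
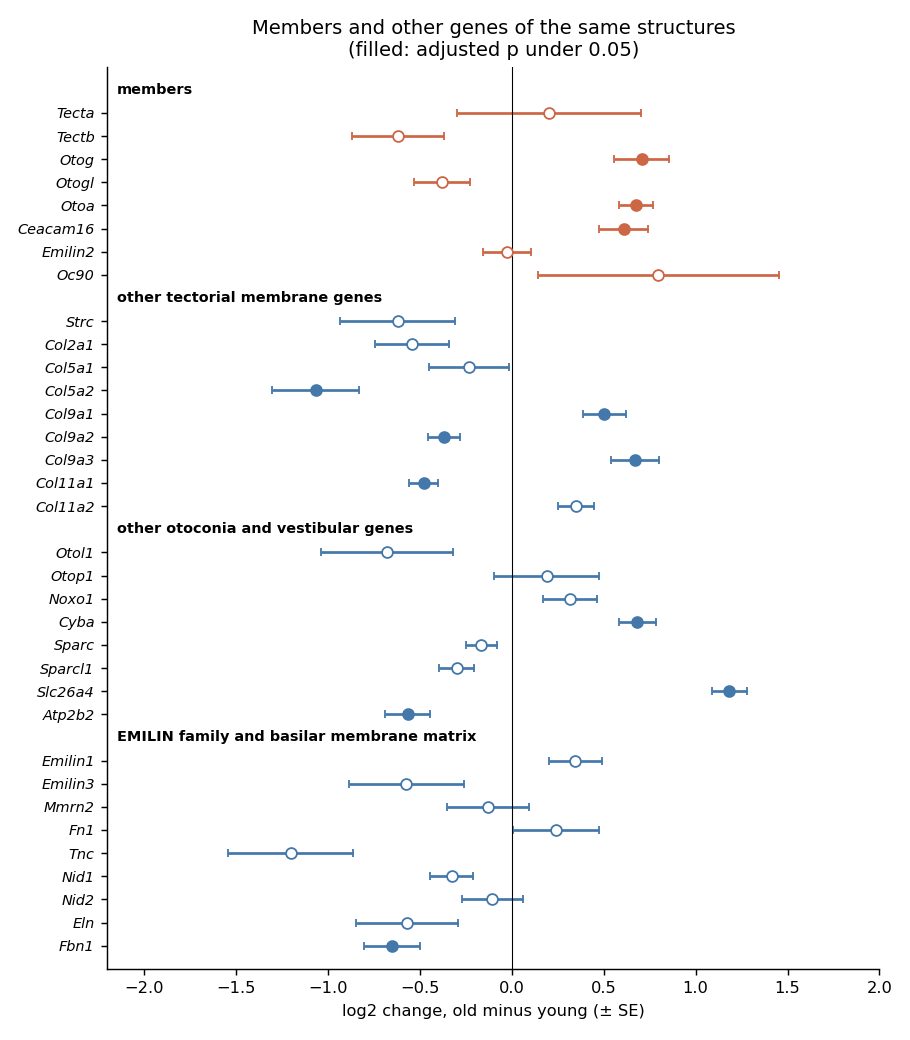
Log2 change (old minus young, with SE) of the 8 members in orange and of the other genes of the tectorial membrane, of otoconia and vestibular organs, and of the EMILIN family and basilar membrane matrix in blue. Filled symbols passed the adjusted threshold, which were Otog, Otoa and Ceacam16 among the members, and the filled symbols of the other lists lie on both sides of 0.

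Genes with the most similar profile were sought for each member by the root-mean-square difference of log2 values, each gene centred on its mean, over the 6 samples. For Otoa, whose own profile had a root-mean-square of 0.353, these were S100a13 (0.0508) and Pkp2 (0.0562). For Ceacam16 (0.347) they were Sh3bp2 (0.0582) and Supt3 (0.0595), and for Otog (0.392) they were 5930430L01Rik (0.0450) and Rnf169 (0.0529). For Otogl (0.257) they were Prpf3 (0.0618) and Otof (0.0677), the latter a hair cell gene that went from 6.80 to 5.33 FPKM. For Tectb (0.422) they were LNC_000266 (0.0891) and Adprhl1 (0.110), and for Emilin2 (0.159) Ephx2 (0.0360) and 4930426D05Rik (0.0412). For Tecta (0.241) they were AC157931.1 (0.0655) and LNC_000326 (0.0666), and for Oc90 (0.797) LNC_000243 (0.178) and Adam33 (0.282), with profiles of these 2 members resting on few fragments. They were the closest of 15073 genes (15074 for Tecta and Oc90) with a mean of at least 1 FPKM, which says nothing of shared function.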

How the data were processed

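The authors deposited 1 table of FPKM values per transcript and sample. The submitters' processing notes name CASAVA (1.8), TopHat2 (2.0.9), Cufflinks (2.1.1) and Cuffdiff (2.1.1) and the build GRCm38. The annotation release, the scaling between libraries and the strand setting of the counting are not given in the sources used here. Samples were grouped by the age in their labels. Whether samples came from separate litters is not stated, so p-values measure the spread between these pools only.

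Of 55679 Ensembl transcripts, 55275 were matched to GENCODE release M21, and 404 unmatched transcripts and 992 named by the authors were kept as genes of their own. FPKM was summed per gene and compared with limma 3.58.1 in R 4.3.3 (lmFit, eBayes with trend) on log2(FPKM + 0.1) for genes or transcripts with a mean of at least 0.1 FPKM, with age as the only term. The pseudocount makes the fold of low genes smaller. P-values were adjusted over all genes or all transcripts tested. Cuffdiff, the study's test, needs reads. Depth was estimated from transcripts of 1000 to 4000 nt alone in their gene, of whose low values 92.0 to 93.4% lay within 0.1 of a whole fragment (20% by chance), and fragment numbers, given for transcripts of 500 nt or more, cover counting error only. The code was tested on simulated data. Python 3.11.15 with pandas 2.3.3 and matplotlib 3.10.9 was used for tables and plots.

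The members and lists were chosen with earlier results of these data known. All members are named. Of each other list, genes past the threshold are named, up to 6, or else those with the smallest p. Marker lists, however, are mostly given as sums. As exceptions, Strc, Otol1, Nox3, Noxo1, Otop1, Emilin1, Emilin3, Coch, Dct, Bglap, S100a8 and Gm19345 were named after their values were seen. So were Gjb2, Gjb6, Fgfr3, Epyc, Sox2, Slc1a3, Prox1, Lfng and Hes1. The 2 genes nearest in profile are given per member. Alternatives covered the pseudocount, filter, scaling, variance trend, sample weights, the replicate number as a block, the omission of each sample, the most abundant transcript and other thresholds.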

Additional observations from a re-analysis of the deposited data

How the results depend on the processing

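Ceacam16, Otoa, Otog, Otogl, Tectb and Oc90 kept their direction in every alternative that gave a value. The filter, variance trend and replicate block leave the log2 change itself unchanged, so only the other alternatives could turn a sign. The main counts were 3 members, 1 member transcript, 1787 genes and 9 companion genes (other genes of the same structures) past the threshold. Without a filter on low values they were 1, 0, 908 and 3, and without the variance trend 0, 0, 392 and 1. With each sample left out in turn they ranged from 0 to 3, 0 to 1, 59 to 1756 and 1 to 8, with the lowest number of genes without old replicate 2. Otog passed in 7 of 16 alternatives (limma adjusted p from 0.0231 to 0.102) and Ceacam16 in 8 of 16 (0.0181 to 0.119). A lower call count with fewer samples follows in part from the smaller design, and the cause was otherwise not tested. With a minimum of a 2-fold change 0 members passed. At an unadjusted p below 0.05 there were 5 members, 6 member transcripts and 5403 genes.

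Same-numbered samples did not deviate together (r of deviations from the group means between -0.0416 and 0.0220), so the replicate numbers were not taken as pairs. With a replicate block the counts were 2 members (Otog lost, limma adjusted p = 0.0596), 0 member transcripts, 675 genes and 5 companion genes. The paired log2 difference equals the unpaired one by construction, at 1.09 for Otog over Otogl and 0.82 for Tecta over Tectb. An exact test over all sign changes of the paired differences, two-sided, gave p = 0.25 and p = 0.5. No smaller p than 0.25 is possible with these pairs. Signs turned for members near 0 only: Tecta was at -0.11 under quantile normalization, and Emilin2 was at 0.051 without young replicate 1, 0.048 without young replicate 3 and 0.034 without old replicate 3 (from -0.17 to 0.051 with each sample left out). Depth limits Tecta and Oc90.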
